A study of Mus musculus with 6 samples.

Results

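The collagen genes of the fetal mouse gonad were followed across cell types and across 3 genotypes at E15.5 by single cell mRNA sequencing. Members were all gene symbols of the form Col, a number, a and a number, which picked 44 of the 26251 genes listed for the series, and each of the 44 had at least 1 UMI (a unique molecular identifier, which marks 1 captured RNA molecule). Control XY gonads were wild type for *Amh* and *Inhbb*, dKO XY gonads carried null alleles of both genes in all cells (*Amh*-/-; *Inhbb*-/-), and control XX gonads were wild type ovaries. All embryos came from intercrosses of mice heterozygous for the mutations, on a C57BL/6 background, and both gonads of an embryo were dissociated together and frozen until the genotype was known. Each group had 2 libraries from the 10x Genomics platform, given here as replicate 1 and replicate 2, so a p-value measures the spread between 2 libraries per group. Levels are the summed UMIs of a gene over the cells of a type in a library, scaled to the total of those cells, as counts per 1000000 UMIs (CPM). A gene was called where the adjusted p of edgeR's quasi-likelihood test over all genes tested was under 0.05, and errors of log2 fold changes are standard errors (SE).

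Collagens are triple helical proteins of the extracellular matrix, built from 3 chains that may come from 1 gene or from several. Fibrillar collagens such as types I, III and V form the cables of connective tissue, whereas collagen IV forms the sheet of basement membranes and collagen VI forms beaded microfilaments around cells. FACIT collagens (fibril associated collagens with interrupted triple helices, types IX, XII, XIV and XVI among them) sit on the surface of fibrils, multiplexins (types XV and XVIII) are proteoglycans of basement membrane zones, and transmembrane collagens (XIII, XVII, XXIII and XXV) span the plasma membrane. In the fetal testis a basement membrane surrounds the cords in which Sertoli cells enclose the germ cells, and stromal cells lie between the cords.

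Of the 68064 barcodes, 39350 cells passed the filters, 4781 to 8569 per library, with a median of 18415 to 27124 UMIs per cell. Barcodes with 25% or more mitochondrial UMIs, which were left out, were 24.4% and 28.3% of those of dKO XY, 4.50% and 7.65% of control XY and 9.35% and 2.22% of control XX, and 51.1% and 45.8%, 74.6% and 68.2%, and 53.2% and 60.4% of barcodes passed in the same order. This difference moves with genotype, and its part in the comparisons with dKO XY was not tested. Between 1 pair of libraries at most 25 barcodes were shared. *Amh*, the first of the mutated genes, stood at 1987 and 1876 CPM in supporting cells of control XY, 18.2 and 15.7 CPM in dKO XY and 1.34 and 1.42 CPM in control XX. *Inhbb* stood at 157 and 182 CPM in control XY, 41.4 and 50.7 CPM in dKO XY and 37.0 and 25.1 CPM in control XX supporting cells, and the tags may lie outside the deleted part. Cell types were rebuilt without any collagen gene among the clustering genes and named from marker genes, so that each name below stands for cells that are like that type. Free RNA of a droplet gives UMIs in cells that do not make a gene, so the level in immune cells, in which all 8 immune markers were found in every library, is given beside that of several genes. How much of it is free RNA was not tested, and it is not the same in all other types, as *Col4a1* had 177 and 200 CPM in immune cells of dKO XY and 93.5 and 77.0 CPM in its germ cells. In the sums of libraries, fewer cells with a gene and less of its RNA per cell cannot be told apart.

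Interstitial cells, the mesenchyme between the cords, held most of the collagen RNA. Collagen genes made up 0.923% ± 0.0142 of the UMIs of interstitial cells in control XY, 0.735% ± 0.0433 in dKO XY and 0.802% ± 0.00360 in control XX (SD, n = 2 libraries each). They made up 75.6%, 55.5% and 45.3% of the cells in the same order of groups (means of 2 libraries) and held 86.0%, 73.8% and 73.3% of all collagen UMIs. In pericytes, the contractile cells around small vessels, the share was 0.840% in control XY, 0.793% ± 0.102 in dKO XY and 0.498% in control XX, and in endothelial cells it was 0.513%, 0.419% and 0.367%. The few epithelial cells gave 0.831%, 0.254% and 0.341%. Supporting cells, the Sertoli and granulosa lineage, gave 0.249%, 0.253% and 0.132%. Steroid-making Leydig cells gave 0.195% in control XY and 0.187% in dKO XY. Immune cells gave 0.146%, 0.109% and 0.0144%, and germ cells 0.145% (1 library), 0.0616% and 0.0480%. The shares are a description of the cell types, with no test between them.

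With all supporting cells taken as 1 type, a level of at least 100 CPM on average in some cell type of a group was reached by 17 of the genes, namely 5 of the 11 fibrillar genes, 2 of the 6 collagen IV genes, 3 of the 6 collagen VI genes, 3 of the 9 FACIT genes, both multiplexins and 2 of the 4 transmembrane genes. The other 27 peaked between 0.313 CPM (*Col10a1*, a cartilage collagen) and 92.9 CPM (*Col12a1*) over these types, although *Col27a1*, with 84.6 CPM in dKO XY supporting cells, had 131 ± 32.5 CPM in the Sertoli cells among them. *Col1a1* and *Col1a2*, the chains of collagen I, lay on chromosome 11 (94936224 to 94953042) and chromosome 6 (4504814 to 4541544) of GRCm38. *Col1a2* reached 1911 ± 55.6 CPM in control XY interstitial cells, 1479 ± 65.7 CPM in dKO XY and 1494 ± 38.0 CPM in control XX, its highest type in each group. *Col3a1*, which forms collagen III by itself, had 2039 ± 6.88 CPM in the same cells of control XY, 1634 ± 67.1 CPM in dKO XY and 2193 ± 170 CPM in control XX. In control XY, the few epithelial cells (30 and 39 per library) had more *Col1a1* than interstitial cells (2364 ± 213 against 1568 ± 25.4 CPM) and as much *Col3a1*, and they also held summed interstitial markers of 1653 and 1657 CPM. *Col5a1* and *Col5a2*, which regulate the width of fibrils, had 203 ± 10.4 and 139 ± 3.56 CPM there in control XY. *Col6a1* (522 ± 9.94 CPM in control XY) and *Col6a2* (528 ± 9.80 CPM), neighbours on chromosome 10, were also highest in interstitial cells of all 3 groups. *Col6a3*, the third chain of collagen VI, was highest in pericytes of control XY (151 ± 21.8 CPM) and dKO XY (143 ± 33.0 CPM).

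*Col4a1* and *Col4a2*, the main chains of basement membranes, peaked in vessels. They lie head to head on chromosome 8, with annotated starts 21 bases apart on opposite strands. *Col4a1* stood at 2725 and 2783 CPM in control XY pericytes, 2326 and 2891 CPM in dKO XY and 1698 and 1324 CPM in control XX. Endothelial cells had 2133 and 2304 CPM of *Col4a1* in control XY, 1649 and 1979 CPM in dKO XY and 1842 and 1549 CPM in control XX, so in control XX the order of both types was within their spread. The ratio of *Col4a1* to *Col4a2* UMIs lay between 1.02 and 2.63, with a median of 2.20 over 51 sums of 1 cell type in 1 library. For *Col1a1* over *Col1a2* the ratio ran from 0.234 in Leydig cells of dKO XY replicate 2 to 1.79 in epithelial cells of control XY replicate 1. The widest span was that of *Col9a2* over *Col9a3*, between 0.186 in Sertoli cells and 142 in control XX interstitial cells. These ratios are across cell types of the same 6 libraries and describe the chains, without a test.

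In control XY the multiplexins were highest in endothelial cells, and the transmembrane genes *Col13a1* and *Col25a1* in interstitial cells. *Col15a1* had 295 and 311 CPM in endothelial cells of control XY, 302 and 358 CPM in dKO XY and 258 and 224 CPM in control XX, and was next highest in pericytes in both XY groups. *Col18a1*, the precursor of endostatin, was likewise highest in endothelial cells of control XY (743 and 706 CPM), whereas in dKO XY the supporting cells (580 and 627 CPM) overlapped the endothelial cells (512 and 682 CPM). *Col13a1* (109 and 103 CPM) and *Col25a1* (111 and 112 CPM) were highest in control XY interstitial cells. *Col9a3*, a chain of collagen IX, had 265 and 276 CPM in control XY supporting cells and no more than 24.4 CPM in a library of any other control XY type.

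**Figure D1:**
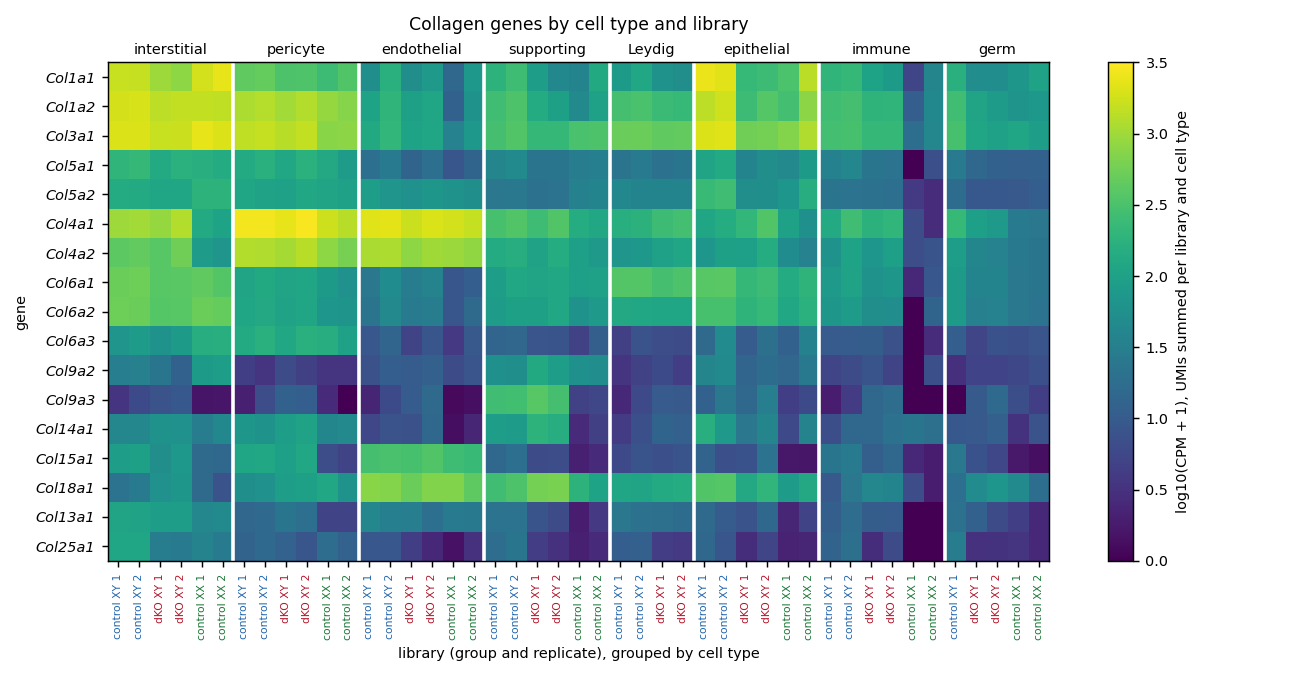
Level of the 17 collagen genes with a mean of at least 100 CPM in a cell type (supporting cells as 1 type), as log10(CPM + 1) by colour, with genes in rows and libraries in columns, grouped by cell type and coloured by genotype. *Col1a1*, *Col1a2* and *Col3a1* are bright in interstitial cells, *Col4a1* and *Col4a2* in pericytes and endothelial cells, and *Col9a3* stands out in supporting cells of the 4 XY libraries.

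The dKO XY embryos were made to ask whether AMH and activin B, 2 ligands of Sertoli cells, act jointly in the forming testis, so the supporting lineage comes first. Sertoli and granulosa cells were named in a second clustering of the supporting cells. It took those in which log normalized *Tcf21*, an interstitial gene, and *Sycp3*, a germ cell gene, were both under 1, so cells rich in either are lacking. Summed germ markers still reached 87.4 and 22.1 CPM in control XY and 174 and 223 CPM in dKO XY over all cells so selected. The germ marker *Dppa5a* was among the leading genes of the larger Sertoli cluster. The part of germ cell RNA in the comparison was not tested. Sertoli cells, in which all 10 Sertoli markers were found, numbered 190 and 407 in control XY and 677 and 419 in dKO XY. Their summed Sertoli markers were similar in both groups (11251 and 10089 CPM in control XY, 11294 and 9101 CPM in dKO XY), while summed granulosa markers were at 956 and 960 CPM in control XY and 1685 and 1811 CPM in dKO XY. The cells were named by these same Sertoli markers, so their similar sums follow in part from the naming. Of 32 collagen genes tested, 10 rose and 4 fell in dKO XY, where 14.7% of all 13733 genes tested were called (8.68% were higher). The median log2 fold change of the members was 0.03, beside -0.01 for all genes tested. Of the 7 FACIT collagens tested, 5 rose and none fell, with a median log2 fold change of 1.45. The other 12 members did not pass the filter on low counts in these cells.

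All 3 chains of collagen IX, a collagen known from cartilage and the eye, rose in dKO XY Sertoli cells. *Col9a3* (chromosome 2, 180597790 to 180622189, plus strand) went from 340 and 334 CPM in control XY to 643 and 546 CPM in dKO XY, a log2 fold change of 0.77 ± 0.14 (adjusted p = 0.0033). *Col9a2* (chromosome 4, 121039385 to 121055322, plus strand) had 67.0 and 62.1 CPM in control XY and 209 and 156 CPM in dKO XY (1.45 ± 0.16, adjusted p = 0.00012). *Col9a1* was scarce, with 5 and 9 UMIs in control XY against 279 and 351 UMIs in dKO XY, or 0.829 and 0.740 CPM against 13.2 and 20.4 CPM (4.38 ± 0.36, adjusted p = 2.2e-05). Each chain was called higher, as were 8.68% of all genes tested. For each chain both dKO XY libraries were above both control XY libraries. That comes from the same values as the calls and adds nothing to them, and the share of all genes with such a separation was not counted. Immune cells of the same libraries had at most 16.8 CPM of *Col9a3* and 7.23 CPM of *Col9a2*, below every Sertoli library of these 2 genes.

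*Col14a1*, which encodes the fibril associated collagen XIV, had 107 and 101 CPM in control XY Sertoli cells and 293 and 274 CPM in dKO XY (1.40 ± 0.13, adjusted p = 4.5e-05). *Col18a1* went from 314 and 380 CPM to 790 and 901 CPM (1.24 ± 0.15, adjusted p = 0.00030), above the 743 and 706 CPM of control XY endothelial cells. *Col27a1*, a fibrillar collagen, went from 52.4 and 63.2 CPM to 108 and 154 CPM (1.13 ± 0.18, adjusted p = 0.0019). In immune cells these 3 genes stayed at or below 40.5 CPM in every XY library. The other members called higher were scarce. UMIs given for them are raw counts, and more Sertoli cells were summed in dKO XY than in control XY. *Col4a5* had 4.15 and 6.09 CPM in control XY and 11.2 and 13.5 CPM in dKO XY (1.18 ± 0.24), *Col12a1* 1 and 10 UMIs against 66 and 75, *Col2a1*, the main cartilage collagen, 2 and 7 UMIs against 74 and 78, and *Col7a1* 2 and 4 UMIs against 56 and 50. The collagen IX chains, *Col14a1*, *Col18a1*, *Col27a1* and *Col4a5* stayed called when any 1 of the 4 libraries was left out, which leaves 1 group with a single library that is assumed to vary like the other group.

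The 250 bases before the annotated RefSeq start of *Col27a1* are given because the gene rose in dKO XY Sertoli cells and had only 13.2 and 11.3 CPM in control XX supporting cells. They lie at chr4:63215162-63215411 of GRCm38.p6 on the plus strand, within an intron of a longer *Col27a1* transcript of GENCODE M21 and in no exon, and the capitals mark the GC box GGGCGG, which begins 85 bases before the start.
Col27a1: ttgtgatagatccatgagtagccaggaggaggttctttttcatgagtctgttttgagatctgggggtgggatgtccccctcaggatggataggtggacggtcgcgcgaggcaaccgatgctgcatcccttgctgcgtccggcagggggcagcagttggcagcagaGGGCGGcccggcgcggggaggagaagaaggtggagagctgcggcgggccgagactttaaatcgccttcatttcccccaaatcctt
A GC box on either strand (GGGCGG or CCGCCC) was found in 22 of 38 upstream windows of collagen genes (57.9%) and in 32.7% of all 32841 windows of the table. The motif AACAAT, bound by SOX factors, was found in 1 of the 38 collagen windows (2.63%) and in 9.43% of all windows on either strand. The other motifs counted were CCAAT, in 34.2% of collagen windows and 33.9% of all, and TATAAA, in 13.2% and 12.4%. These are matches of letters and do not show binding.

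The 2 main chains of collagen IV and 1 chain of collagen I fell in Sertoli cells, in which the collagen IV gene *Col4a5* was among those that rose. *Col4a1* had 204 and 214 CPM in control XY and 84.7 and 102 CPM in dKO XY, a log2 fold change of -1.21 ± 0.14 (adjusted p = 0.00022). *Col4a2* fell beside it, from 91.4 and 99.9 CPM to 47.1 and 55.8 CPM (-0.94 ± 0.14, adjusted p = 0.0012). Immune cells held 135 and 269 CPM of *Col4a1* in control XY, a range that took in that of Sertoli cells, and 177 and 200 CPM in dKO XY, above the Sertoli cells, and the part of free RNA in the difference was not tested. *Col1a1* had 35.8 and 62.3 CPM in control XY and 30.3 and 17.2 CPM in dKO XY (-1.11 ± 0.27, adjusted p = 0.017), under the 196 and 212 CPM and the 107 and 79.6 CPM of immune cells. *Col1a2* was not called (-0.39 ± 0.19), nor were *Col4a4* (-0.11 ± 0.38) and *Col4a6* (0.64 ± 0.71). The remaining member that fell was *Col25a1* (-1.35 ± 0.32), with 23 and 52 UMIs in control XY and 34 and 29 in dKO XY. Without control XY replicate 2, *Col1a1* was not called.

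**Figure D2:**
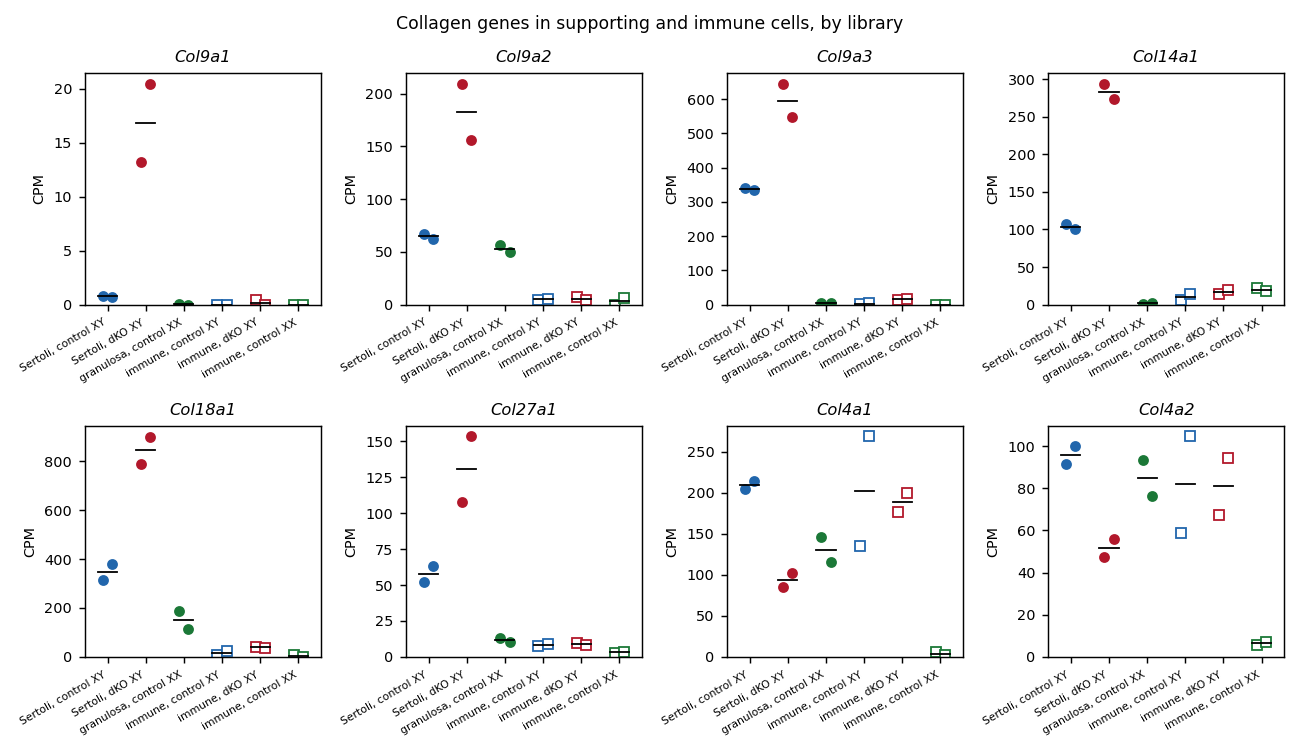
Level in CPM of 8 collagen genes in Sertoli cells of control XY and dKO XY, in granulosa cells of control XX and in immune cells of the 3 groups, where each point is a library (open squares for immune cells) and each bar the mean of 2. Collagen IX, *Col14a1*, *Col18a1* and *Col27a1* are above control XY in both dKO XY libraries, and *Col4a1* and *Col4a2* are below it and, in dKO XY, also below the immune cells.

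Beside the 14.7% of all genes called in Sertoli cells, 2 of 18 genes for modification and folding of collagen rose and 1 fell, 1 of 7 propeptide cleavage and crosslinking genes rose and 2 fell, and 2 of 9 genes of breakdown and uptake rose and 3 fell. *Plod2* and *Colgalt1*, which hydroxylate and glycosylate lysines of collagen, rose by 0.82 ± 0.14 and 0.74 ± 0.13 on the log2 scale. *Mmp15*, a membrane bound protease, rose by 1.61 ± 0.15, and *Timp1*, an inhibitor of matrix metalloproteases, by 0.55 ± 0.14. None of the 3 collagen receptor genes tested was called.

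Supporting cells as a whole (control XY had 272 and 553 cells, dKO XY 1298 and 960, control XX 3017 and 1198) add the granulosa cells, the cells that were given no name and those with a higher *Tcf21* or *Sycp3*. These last numbered 64 and 115 for control XY, 110 and 66 for dKO XY, and 266 and 273 for control XX. Of the cells without a name, 1 cluster held 427 and 448 cells of dKO XY, 11 and 29 of control XY and 17 and 10 of control XX, with *Col4a1* at 509 and 582 CPM in dKO XY, so the make-up of the class differed between groups and its part in the values was not tested. Of 41 members tested, 9 rose and 6 fell between control XY and dKO XY, where 16.4% of all genes tested were called (9.61% higher and 6.84% lower). *Col9a2* went from 55.4 and 54.5 CPM to 133 and 89.2 CPM (1.03 ± 0.18, adjusted p = 0.0039), *Col18a1* from 265 and 328 CPM to 580 and 627 CPM (1.03 ± 0.23), *Col14a1* from 89.2 and 84.8 CPM to 182 and 152 CPM (0.95 ± 0.23) and *Col27a1* from 44.0 and 60.8 CPM to 75.3 and 93.9 CPM (0.70 ± 0.18). *Col4a5*, a chain of a second collagen IV network, went from 11.2 ± 1.37 to 26.4 ± 4.97 CPM (SD, n = 2), or 1.24 ± 0.18 on the log2 scale. *Col9a3* was not called in the whole class (0.34 ± 0.15), nor were *Col4a1* (-0.07 ± 0.18) and *Col4a2* (-0.22 ± 0.17). *Col1a2* (-1.32 ± 0.31), *Col3a1* (-0.62 ± 0.13), *Col5a1* (-0.93 ± 0.13), *Col13a1* (-1.67 ± 0.38), *Col15a1* (-1.52 ± 0.22) and *Col25a1* (-2.82 ± 0.27) were called lower. Without control XY replicate 2 the number called was 9, with *Col14a1*, *Col18a1*, *Col1a2* and *Col3a1* lost, and leaving out 1 of the other XY libraries ended the call of *Col14a1*, *Col18a1*, *Col27a1* or *Col1a2*. Of the collagen processing genes, none of 18 modification and folding genes rose and 2 fell, 1 of 10 cleavage and crosslinking genes rose and 3 fell, 2 of 9 breakdown genes rose and 3 fell, and 2 of 7 receptor genes fell.

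The falls of stromal chains moved with interstitial RNA in the supporting class, and its part in them was not tested. All 8 interstitial markers were found in it, and together they reached 596 and 630 CPM in control XY, 355 and 345 CPM in dKO XY and 149 and 206 CPM in control XX. The sums were repeated over the supporting cells with *Tcf21* and *Sycp3* both under 1, which are the cells that entered the second clustering and so hold the Sertoli and granulosa cells. The study's methods also took out cells with these genes, and the repeat for the whole class was added after the data were seen. For these cells (208 and 438 cells in control XY, 1188 and 894 in dKO XY, the latter with the unnamed cluster) interstitial markers summed to 181 and 229 CPM in control XY, 255 and 281 CPM in dKO XY and 129 and 126 CPM in control XX. *Tcf21*, by which the cells were picked, is among the markers summed, so the lower sums follow in part from the selection. In these cells 13 members rose and 1 fell, where 18.6% of all genes tested were called. Of the 6 falls, that of *Col25a1* was still called (-1.77 ± 0.34), *Col1a2* (-0.19 ± 0.28) and *Col13a1* (-0.70 ± 0.38) were not, and *Col3a1* (0.73 ± 0.23), *Col5a1* (0.23 ± 0.17) and *Col15a1* (0.06 ± 0.28) had a positive sign without a call. By contrast, *Col6a2* (1.84 ± 0.18) and *Col6a1* (1.18 ± 0.19) were called higher. *Col9a2* (0.92 ± 0.18), *Col14a1* (0.81 ± 0.21), *Col18a1* (0.87 ± 0.21), *Col27a1* (0.59 ± 0.18) and *Col4a5* (1.93 ± 0.20) stayed higher. *Col6a2* had 24.1 and 29.5 CPM in control XY and 83.0 and 113 CPM in dKO XY in this selection. Neither *Col6a1* nor *Col6a2* was among the members called in Sertoli cells. In the smaller Sertoli cluster *Col6a2* had 13.7 and 17.6 CPM in control XY and 27.4 and 32.0 CPM in dKO XY. The unnamed cluster made up 427 and 448 of the selected dKO XY cells and 11 and 29 of those of control XY. Its part in the rises of this selection was not tested.

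**Figure D3:**
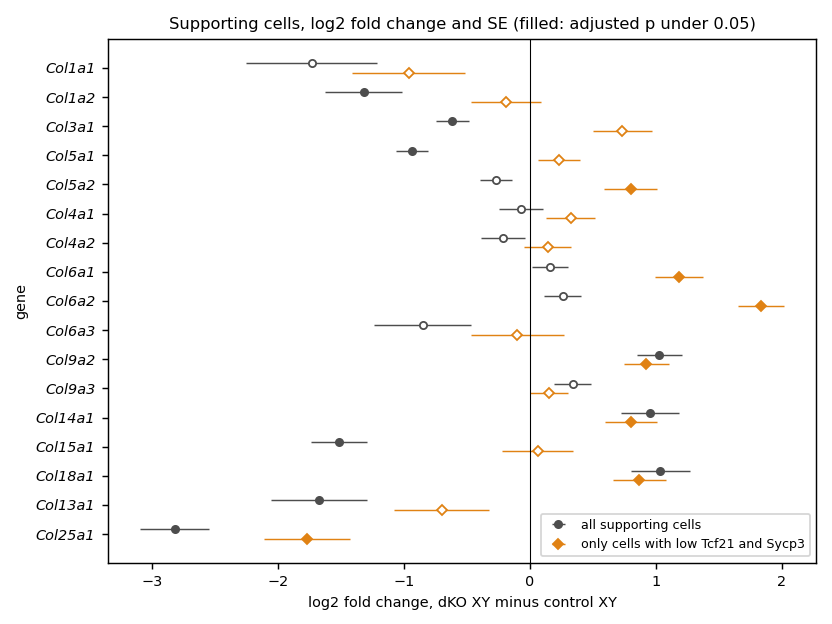
Log2 fold change of 17 collagen genes (dKO XY minus control XY) in supporting cells with its SE, for all supporting cells (circles) and for those with low *Tcf21* and *Sycp3* (diamonds), where filled symbols have an adjusted p under 0.05. *Col9a2*, *Col14a1* and *Col18a1* are higher both ways, while *Col3a1* moves from -0.62 to 0.73 and *Col6a2* from 0.26 to 1.84.

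Control XX supporting cells, of which granulosa cells were 2719 of 3017 and 909 of 1198, had 7 members higher and 19 lower than control XY among 41 tested, where 48.3% of all genes tested were called (24.9% higher and 23.4% lower). *Col9a3* stood at 3.98 and 4.51 CPM against 265 and 276 CPM (-6.05 ± 0.19, adjusted p = 4.1e-08) and *Col14a1* at 1.68 and 3.55 CPM against 89.2 and 84.8 CPM (-5.21 ± 0.29, adjusted p = 8.0e-07). *Col9a2*, the partner of *Col9a3*, had 55.9 and 50.5 CPM in control XX and 55.4 and 54.5 CPM in control XY, a log2 fold change of -0.09 ± 0.17 that was not called. *Col27a1* (-2.14 ± 0.19), *Col18a1* (-1.08 ± 0.23), *Col4a1* (-1.33 ± 0.18) and *Col4a2* (-0.84 ± 0.18) were lower in control XX. *Col4a5* was higher there, with 64.9 and 55.2 CPM against 10.2 and 12.2 CPM (2.37 ± 0.18, adjusted p = 6.1e-06), as was *Col12a1* with 49.1 and 43.6 CPM against 4.04 and 2.74 CPM (3.78 ± 0.20). All 6 collagen IV genes were called, *Col4a5* and *Col4a6* (1.40 ± 0.28) upwards and *Col4a1* to *Col4a4* downwards. In the supporting cells with low *Tcf21* and *Sycp3*, *Col4a2* was not called (-0.31 ± 0.19, with 92.8 and 76.0 CPM in control XX and 91.1 and 107 CPM in control XY), *Col4a1* was lower by less (-0.80 ± 0.19), and the other 4 stayed called in their direction.

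Fibrillar and collagen VI chains again differed between both sets of cells. *Col1a2* (-2.10 ± 0.31), *Col1a1* (-1.42 ± 0.52, adjusted p = 0.046) and *Col6a2* (-0.44 ± 0.15) were called lower in control XX supporting cells, and *Col3a1* was not called (-0.06 ± 0.13). *Col1a1* and *Col6a2* were each lost without control XY replicate 1, control XY replicate 2 or control XX replicate 1. In the cells with low *Tcf21* and *Sycp3*, *Col1a2* stayed lower (-0.97 ± 0.28), but *Col6a2* (1.13 ± 0.18), *Col6a1* (0.91 ± 0.19), *Col3a1* (1.53 ± 0.24) and *Col5a2* (1.70 ± 0.21) were called higher, with 12 members higher and 14 lower where 50.1% of all genes tested were called. *Col3a1* had 302 and 289 CPM in these control XX cells and 67.4 and 124 CPM in control XY, while immune cells of control XX had 17.4 and 41.2 CPM. Of the collagen processing genes, beside 48.3% of all genes called, 2 of 18 for modification and folding were higher in control XX and 9 lower, 1 of 10 for cleavage and crosslinking higher and 7 lower, 3 of 9 for breakdown higher and 2 lower, and 4 of 7 receptor genes lower. *Plod2* (-2.30 ± 0.13), *Colgalt1* (-1.22 ± 0.14) and the receptor *Ddr1* (-1.26 ± 0.12) were lower in control XX, and *Mmp15* was higher (1.48 ± 0.15).

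Relative to control XX, dKO XY supporting cells had 19 members higher and 8 lower of 41, where 40.5% of all genes tested were called (21.0% higher and 19.5% lower). *Col9a3* (6.39 ± 0.19), *Col14a1* (6.16 ± 0.30), *Col27a1* (2.84 ± 0.19), *Col18a1* (2.11 ± 0.24), *Col4a1* (1.26 ± 0.18), *Col9a2* (1.12 ± 0.17), *Col6a2* (0.70 ± 0.15) and *Col4a2* (0.63 ± 0.17) were higher in dKO XY. *Col4a5* (-1.13 ± 0.16) and *Col3a1* (-0.56 ± 0.13) were lower, and so was *Col12a1* (-1.57 ± 0.15). *Col1a1* (-0.31 ± 0.51) and *Col6a1* (0.35 ± 0.14) were not called. *Col9a1* had 2 and 0 UMIs in control XX, under the limit of 3 UMIs, against 313 and 401 UMIs in dKO XY. The comparisons of supporting cells share libraries, so their values are given side by side only. *Col4a5* lay between the controls in dKO XY (26.4 ± 4.97 CPM), as did *Col12a1* (15.7 and 14.4 CPM), whereas *Col9a2* and *Col18a1* were above both controls. Among processing genes, 5 of 18 for modification and folding were higher and 2 lower than in control XX, 4 of 10 for cleavage and crosslinking and 2 of 7 receptor genes were higher, and 2 of 9 breakdown genes were lower.

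Interstitial cells of dKO XY had 3 members higher and 8 lower of 42 tested, where 7.21% of all genes tested were called (4.26% higher and 2.95% lower). The largest fall was that of *Col25a1*, the precursor of a peptide first known from amyloid plaques, with 111 and 112 CPM in control XY, 28.6 and 26.0 CPM in dKO XY and 35.6 and 27.4 CPM in control XX. Its log2 fold change was -2.04 ± 0.12 between dKO XY and control XY (adjusted p = 0.0012). *Col23a1*, another transmembrane collagen, had 56.0 and 58.4 CPM in control XY, 18.6 and 23.6 CPM in dKO XY and 26.3 and 18.5 CPM in control XX (-1.45 ± 0.15, adjusted p = 0.0033). The third transmembrane gene at this level, *Col13a1*, was not called (-0.26 ± 0.10). *Col25a1* lies on chromosome 3 (130131501 to 130599877, plus strand). The dKO XY and control XX libraries overlapped for both genes.

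The 250 bases before the RefSeq starts of *Col25a1* and *Col23a1*, which fell together, are shown with GC boxes in capitals, both on the plus strand of GRCm38.p6. That of *Col25a1* (chr3:130180595-130180844) lies within an intron of a longer GENCODE M21 transcript of the gene and holds 2 GC boxes, and that of *Col23a1* (chr11:51289670-51289919) overlaps no annotated gene and holds 1, which begins 11 bases before the start.
Col25a1: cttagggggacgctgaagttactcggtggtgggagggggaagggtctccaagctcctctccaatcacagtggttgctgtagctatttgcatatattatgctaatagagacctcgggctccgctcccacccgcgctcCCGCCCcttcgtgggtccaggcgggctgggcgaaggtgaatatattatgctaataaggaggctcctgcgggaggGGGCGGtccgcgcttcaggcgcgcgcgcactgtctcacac
Col23a1: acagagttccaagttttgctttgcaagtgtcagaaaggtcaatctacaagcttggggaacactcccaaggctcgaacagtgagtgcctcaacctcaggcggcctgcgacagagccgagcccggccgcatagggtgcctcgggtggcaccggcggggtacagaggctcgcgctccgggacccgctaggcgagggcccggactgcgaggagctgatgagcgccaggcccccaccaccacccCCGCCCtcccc

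*Col1a1* had 1586 and 1550 CPM in control XY interstitial cells, 974 and 812 CPM in dKO XY and 1839 and 2318 CPM in control XX, and fell by 0.82 ± 0.17 on the log2 scale in dKO XY (adjusted p = 0.029). Its partner *Col1a2* was not called (-0.38 ± 0.11). The chains *Col6a2* (-0.48 ± 0.10) and *Col6a1* (-0.42 ± 0.10) also fell, and the third chain *Col6a3* did not pass (-0.12 ± 0.16). *Col16a1* (-0.56 ± 0.09) and *Col15a1* (-0.56 ± 0.14) were lower as well. *Col18a1* went the other way, from 20.5 and 27.6 CPM to 57.1 and 69.9 CPM (1.39 ± 0.29, adjusted p = 0.028). Immune cells held 8.38 and 23.0 CPM of *Col18a1* in control XY and 40.5 and 37.5 CPM in dKO XY, and the part of free RNA in this rise was not tested. Of the collagen processing genes, beside 7.21% of all genes called, 1 of 19 for modification and folding and 1 of 6 receptor genes rose, none of 11 breakdown genes was called, and 2 of 12 for cleavage and crosslinking fell, among them *Loxl1*, a crosslinking enzyme (-0.68 ± 0.09). *Col25a1* and *Col23a1* stayed called without any 1 of the 6 libraries, whereas each of the other genes named here as called was lost in at least 1 case. The number called was 6 without dKO XY replicate 1, 4 without dKO XY replicate 2, 3 without control XY replicate 1 and 4 without control XY replicate 2.

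The interstitial cells fell into 3 clusters, and the 2 clusters that made up most of the XY stroma gave the same direction for these genes. In the first, with 3391 and 3949 cells in control XY and 2267 and 1187 in dKO XY, *Col25a1* had 134 and 135 CPM against 40.7 and 38.8 CPM (-1.76 ± 0.07). In the second it had 95.5 and 95.8 CPM against 23.8 and 22.3 CPM (-2.03 ± 0.08). *Col1a1* was lower in both (-1.05 ± 0.12 and -1.09 ± 0.15) and *Col18a1* higher (1.38 ± 0.13 and 1.54 ± 0.19), and *Col3a1* was called lower in each cluster alone (-0.39 ± 0.07 and -0.46 ± 0.07). The third cluster, with 259 and 236 cells in control XY and 649 and 313 in dKO XY, had none of its 37 members called, 17 at an unadjusted p under 0.05, and none of the 13389 genes tested was called. The share of all genes at that unadjusted p is not given, so the 17 have no background. In that cluster *Col1a1* had 4558 and 4934 CPM in control XY and 2563 and 3274 CPM in dKO XY, above its level in both other clusters.

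**Figure D4:**
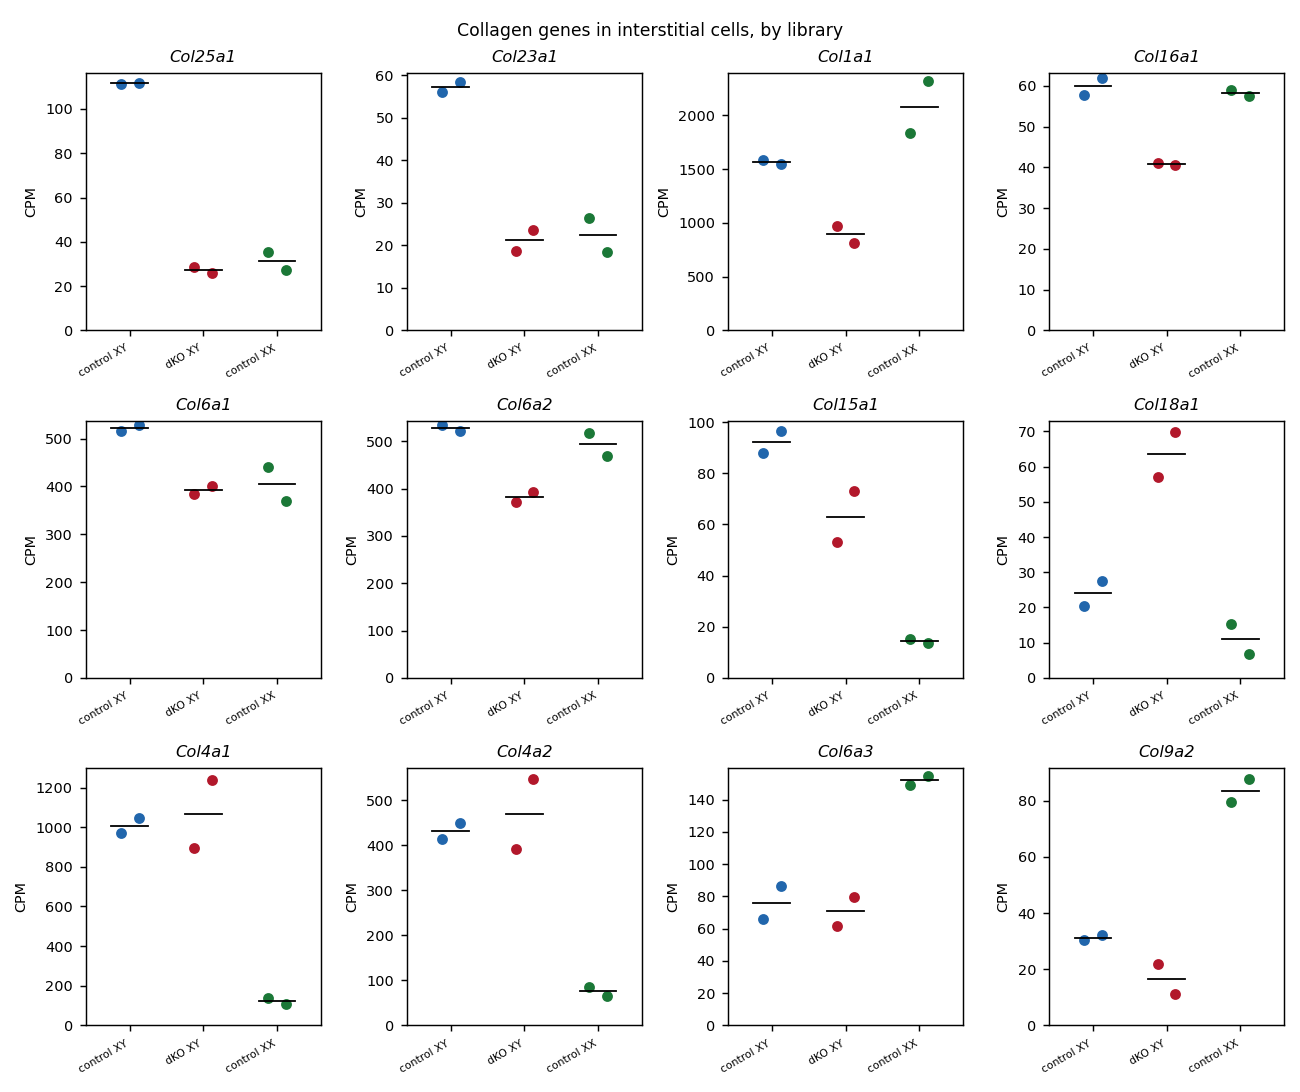
Level in CPM of 12 collagen genes in interstitial cells, where each point is a library and each bar the mean of the 2 libraries of control XY, dKO XY or control XX. *Col25a1* and *Col23a1* are near the control XX level in dKO XY, *Col1a1* is lowest in dKO XY, and *Col4a1*, *Col4a2* and *Col15a1* are lowest in control XX.

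Control XX interstitial cells differed from control XY in 26 of 42 members, 10 higher and 16 lower, where 25.3% of all genes tested were called (13.3% lower). *Col4a1* had 138 and 107 CPM against 970 and 1045 CPM (-2.98 ± 0.17, adjusted p = 1.6e-05), *Col4a2* 84.5 and 66.3 CPM against 413 and 450 CPM (-2.46 ± 0.17) and *Col15a1* 15.1 and 13.7 CPM against 87.9 and 96.4 CPM (-2.61 ± 0.15). All 4 transmembrane genes were lower, *Col25a1* by 1.77 ± 0.12, *Col23a1* by 1.30 ± 0.15 and *Col13a1* by 1.24 ± 0.10 on the log2 scale. *Col9a2* (1.49 ± 0.27) and *Col6a3* (1.07 ± 0.16) were higher, with 79.4 and 87.7 CPM of *Col9a2* in control XX against 30.3 and 32.1 CPM in control XY. *Col5a2* (0.48 ± 0.09), *Col26a1* (0.50 ± 0.11) and *Col27a1* (0.46 ± 0.11) were higher by less, *Col18a1* (-1.09 ± 0.30), *Col4a4* (-0.64 ± 0.18) and *Col5a1* (-0.38 ± 0.11) lower, and *Col1a1* (0.48 ± 0.17) and *Col3a1* (0.17 ± 0.11) not called. Nearly all control XX interstitial cells (1534 and 2947) lay in the third cluster. Against the few control XY cells of that cluster, 1 member was higher, *Col25a1* (0.91 ± 0.17), and 20 lower, among them *Col1a1* (-1.15 ± 0.18), *Col1a2* (-1.37 ± 0.17) and *Col4a1* (-0.82 ± 0.16), where 11.3% of all genes tested were called. *Col5a2* (-0.94 ± 0.14) and *Col27a1* (-0.84 ± 0.15) were called lower there, the reverse of the whole class. *Col23a1* (0.63 ± 0.20), *Col13a1* (0.17 ± 0.16), *Col26a1* (-0.29 ± 0.17), *Col9a2* (-0.03 ± 0.16) and *Col6a3* (-0.50 ± 0.28) also had the opposite sign there, without a call. Without control XY replicate 1 or replicate 2, 17 members were called in the whole class, and *Col4a1*, *Col4a2*, *Col15a1*, the transmembrane genes named here, *Col9a2* and *Col6a3* were among them. Of the processing genes, 5 of 19 for modification and folding were higher in control XX and 1 lower, 6 of 12 for cleavage and crosslinking higher and 4 lower, 5 of 11 for breakdown higher and 1 lower, and 2 of 6 receptor genes higher and 1 lower.

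Leydig cells of dKO XY had 3 members higher and 4 lower of 34 tested, where 6.41% of all genes tested were called (4.17% higher and 2.24% lower). *Col4a1* went from 155 and 174 CPM to 250 and 283 CPM (0.67 ± 0.10, adjusted p = 0.0091) and *Col4a2* from 66.3 and 72.3 CPM to 100.4 and 116 CPM (0.61 ± 0.10, adjusted p = 0.011). The other collagen IV chains were not called, with log2 fold changes between 0.21 and 0.51. *Col1a1* (-0.88 ± 0.19) and *Col1a2* (-0.42 ± 0.09) were lower, the second of them not without either control XY replicate. *Col14a1* (1.31 ± 0.27), *Col25a1* (-1.79 ± 0.16) and *Col27a1* (-0.63 ± 0.15) were called at low levels. *Col14a1* went from 3.13 and 6.09 CPM to 12.6 and 11.0 CPM and *Col25a1* from 10.1 and 10.8 CPM to 3.37 and 2.81 CPM. *Col14a1* also rose in Sertoli cells and *Col25a1* also fell in interstitial cells, at higher levels, while *Col27a1* rose in Sertoli cells. The part of free RNA in these calls was not tested. Of the processing genes, 2 of 18 for modification and folding and 1 of 10 for cleavage and crosslinking rose, and 1 of 9 for breakdown fell. The levels of *Col4a1* in Leydig cells of control XY were near those of immune cells (135 and 269 CPM), and those of dKO XY were above them (177 and 200 CPM).

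Vessels showed no called member between dKO XY and control XY. In endothelial cells none of 25 members was called by edgeR, 5 had an unadjusted p under 0.05 and DESeq2 called 0, where 0.550% of all genes tested were called. In pericytes none of 32 was called by edgeR, 8 had an unadjusted p under 0.05 and DESeq2 called 0, where 0.265% were called. The shares of all genes at an unadjusted p under 0.05 are not given, so these numbers of members have no background. *Col4a1* had a log2 fold change of -0.28 ± 0.14 in endothelial cells and -0.08 ± 0.14 in pericytes. *Col15a1* stood at 0.13 ± 0.13 and -0.11 ± 0.14. Of the processing genes, 2 of 8 breakdown genes were lower in endothelial cells.

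**Figure D5:**
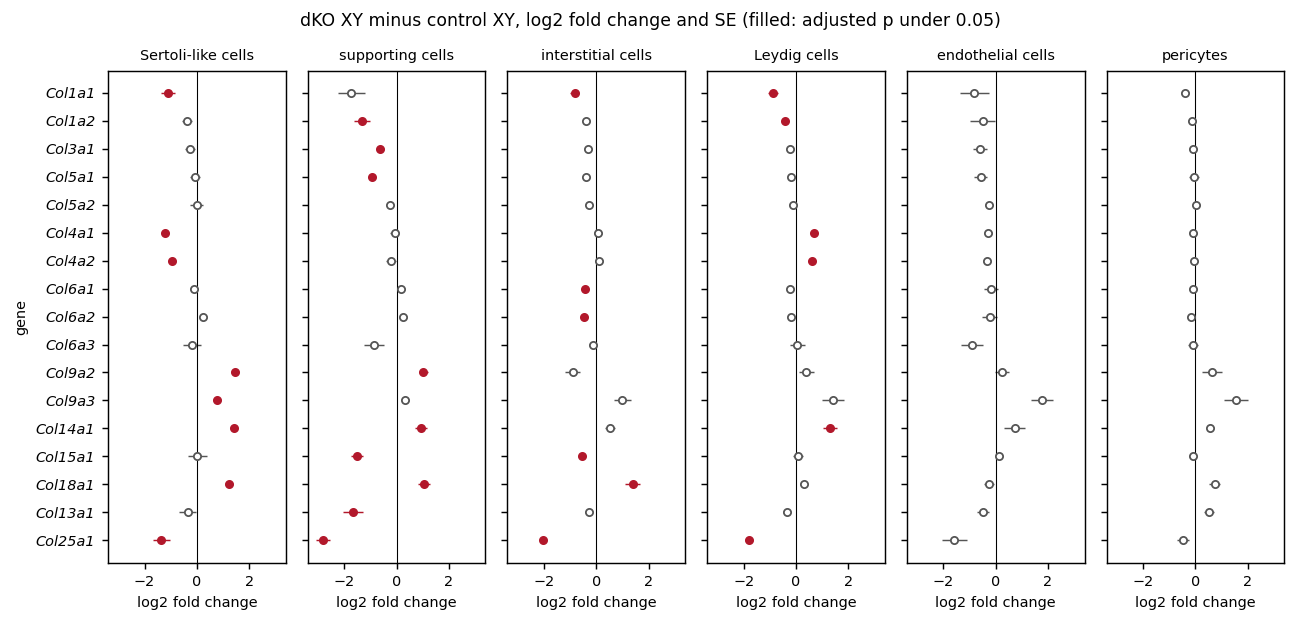
Log2 fold change (dKO XY minus control XY) of 17 collagen genes with its SE in 6 cell groups, where red filled points have an adjusted p under 0.05 and open points do not. *Col9a2*, *Col14a1* and *Col18a1* are higher in Sertoli cells, *Col25a1* is lower in interstitial cells, *Col4a1* and *Col4a2* are lower in Sertoli and higher in Leydig cells, and no point is filled for endothelial cells or pericytes.

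Vessel cells of control XX did differ from control XY. Endothelial cells had 9 of 25 members lower and none higher, where 4.69% of all genes tested were called (2.99% lower). *Col1a2* (-2.07 ± 0.52) and *Col3a1* (-1.63 ± 0.30) were among them, with 34.3 and 73.4 CPM of *Col3a1* in control XX and 131 and 206 CPM in control XY. Immune cells moved the same way, from 287 and 305 CPM in control XY to 17.4 and 41.2 CPM in control XX, and the part of free RNA was not tested. The genes typical of endothelial cells were not called, *Col4a1* at -0.34 ± 0.14, *Col18a1* at -0.34 ± 0.19 and *Col15a1* at -0.29 ± 0.13. DESeq2 called 4 of the 25 members, all among the 9 called by edgeR. Without control XY replicate 2 the call of 1 member was left, and both *Col1a2* and *Col3a1* were lost, and without control XX replicate 1 the number was 4.

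In pericytes 11 members were lower and 2 higher in control XX of 32 tested, where 8.05% of all genes tested were called (3.01% higher and 5.04% lower). *Col15a1* had 5.80 and 4.30 CPM against 112 and 120 CPM in control XY (-4.53 ± 0.25, adjusted p = 2.0e-07), a gap far beyond the spread of either group. *Col11a1* went from 51.6 and 80.6 CPM to 15.7 and 15.4 CPM (-2.03 ± 0.28). *Col3a1* (-0.93 ± 0.13), *Col4a1* (-0.81 ± 0.14), *Col4a2* (-0.76 ± 0.15), *Col6a1* (-0.79 ± 0.17), *Col6a2* (-0.84 ± 0.15) and *Col1a2* (-0.56 ± 0.14) were lower by less, and *Col12a1* was higher (0.72 ± 0.19). *Col8a1*, a collagen of vessel walls, had 17 and 27 UMIs in control XY and 0 in both control XX libraries. These are raw counts, from 206 and 299 pericytes of control XY and only 52 and 121 of control XX. Without control XY replicate 2, 8 members were called, and *Col12a1*, *Col1a2* and *Col6a1* were not. Immune cells of control XY had 21.8 and 27.7 CPM of *Col15a1* and those of control XX 1.45 and 0.878 CPM. Interstitial cells of control XX were likewise low in *Col15a1*, while endothelial cells had 258 and 224 CPM there.

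Whether the dKO XY effect differed between supporting and interstitial cells was tested in 1 model over both, in which 20 of 42 members were called, 10 in each direction, where 19.2% of all genes tested were called (7.77% higher and 11.5% lower). *Col9a2* differed most among the better measured genes, higher by 1.94 ± 0.17 in supporting than in interstitial cells (adjusted p = 9.8e-05). *Col27a1* (0.97 ± 0.14) and *Col4a5* (1.03 ± 0.14) were also called, and these 3 stayed so in the supporting cells with low *Tcf21* and *Sycp3* (1.90 ± 0.17, 0.93 ± 0.14 and 1.79 ± 0.15). Of 8 better measured members with a negative value, 6 had the opposite sign in that selection. *Col15a1* (-1.0 ± 0.18, then 0.64), *Col5a1* (-0.58 ± 0.10, then 0.65) and *Col26a1* (-0.46 ± 0.12, then 1.17) were called in both, and *Col1a2* (-1.0 ± 0.29, then 0.24), *Col25a1* (-0.85 ± 0.23, then 0.26) and *Col4a2* (-0.38 ± 0.08, then 0.043) lost the call. *Col1a1* (-1.03 ± 0.41) and *Col4a1* (-0.20 ± 0.09) were not called. The number called was 9 without control XY replicate 2, 11 without dKO XY replicate 2 and 13 without control XY replicate 1.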

How the data were processed

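Gene expression was measured by single cell mRNA sequencing in 6 libraries of E15.5 gonads, 2 per group, and the microarray data of the same study were not analysed here. Per the labels, the authors mapped reads to mm10 with Cell Ranger and deposited filtered matrices of UMI counts per gene and cell, and the study corrected them for barcode swapping. Cells were kept here if they had over 2500 and under 9000 genes, under 25% mitochondrial and under 20% *Hbb* UMIs, leaving 39350 of 68064 barcodes, with 118475468 to 221675316 UMIs per library. They were clustered with Seurat 5.3.0 (3000 variable genes less 34 listed genes, 21 of them collagens, 20 components, resolution 0.21, 12 clusters), and supporting cells with log normalized *Sycp3* and *Tcf21* under 1 again (8 components, resolution 0.25, 6 clusters). A cluster was named where 3 or more markers were detected in 10% or more of its cells, at 1.5-fold or more the level of the rest, a rule set after a first attempt at naming failed. Doublets were not removed in the main analysis: Scrublet's automatic threshold marked 0 to 71 cells per library, so an alternative left out the 8% with the highest scores.

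Raw UMIs were summed per library and type with at least 10 cells. edgeR 4.0.16 (filterByExpr, TMM, glmQLFit, glmQLFTest, Benjamini-Hochberg over all genes tested) compared groups, with a call at an adjusted p under 0.05. The members and lists were chosen with earlier results of these data known. Named in each comparison were called members of mean log2 CPM of at least 5, at most 12 per direction, with the other chains of their type, and other members where they were scarce but called were chosen after their values were seen. Alternatives were DESeq2 1.42.0, its size factors, no filter, only the 2 groups compared, a replicate block, other cell filters and clusterings, and each library left out. The steps were tested on simulated data with 200 changed genes, where changes of log2 1 were recovered in 51.8% to 79.2% and 2.96% to 13.0% of calls were false. An exact permutation test of 2 against 2 libraries cannot go below p = 0.333, so none was used. Coordinates are from GENCODE M21 (GRCm38) and upstream windows, found for 35 of the 44 genes, from RefSeq.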

Additional observations from a re-analysis of the deposited data

Results flagged for a closer look

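The log2 fold change between dKO XY and control XY was compared between supporting and interstitial cells. The test was the interaction term of a model over both cell types (edgeR, adjusted p under 0.05). At any level, 20 of 42 collagen genes tested were called, beside 19.2% of all genes tested. At a mean log2 CPM of at least 5 the fold change differed for 14 of the 21 collagen genes tested. The share of all genes called at that level was not counted, so this count has no background. It says nothing about collagen genes as a set. Given as supporting minus interstitial, it was higher for *Col9a2* (1.94), *Col4a5* (1.03), *Col27a1* (0.97), *Col6a2* (0.67), *Col6a1* (0.53) and *Col14a1* (0.37). It was lower for *Col13a1* (-1.47), *Col15a1* (-1.0), *Col1a2* (-1.0), *Col25a1* (-0.85), *Col5a1* (-0.58), *Col26a1* (-0.46), *Col18a1* (-0.41) and *Col4a2* (-0.38). *Col18a1* was called higher in dKO XY in both types, so its value is a difference in size. The sum of interstitial markers in the supporting class fell from 596 and 630 CPM in control XY to 355 and 345 CPM in dKO XY, and its part in the negative values was not tested. In supporting cells with low *Tcf21* and *Sycp3*, *Col18a1* was still lower (-0.51), and *Col13a1* (-0.45) and *Col14a1* (0.29) lost the call. The other 6 negative values turned positive there, with a call for *Col15a1* (0.64), *Col26a1* (1.17) and *Col5a1* (0.65) and without one for *Col1a2* (0.24), *Col25a1* (0.26) and *Col4a2* (0.043). The other 5 positive values, those of *Col9a2*, *Col4a5*, *Col27a1*, *Col6a2* and *Col6a1*, were still called higher. The part of the unnamed cluster of dKO XY supporting cells in these values was not tested.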

How the results depend on the processing

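Among the single genes followed, 1420 values under an alternative kept their direction and call, 76 lost the call, 31 gained one and 29 changed direction. Not every member was followed in each comparison, so the 29 are not all turns of sign. With a library left out 777 kept both, 112 lost the call and 23 gained one. Without a filter on low counts, 14 members were called in Leydig cells, and 5 in endothelial cells and 4 in pericytes between dKO XY and control XY. DESeq2, and also cells with more than 1500 genes, gave 4 members in endothelial cells of control XX. Without the cells of the highest doublet scores 1 was called in dKO XY endothelial cells, and with only the groups compared 1 in dKO XY pericytes. The third interstitial cluster alone gave 0 for dKO XY. With 1 library left out, the members called numbered 9 to 17 (supporting cells), 12 to 16 (Sertoli cells), 3 to 13 (interstitial cells), 6 to 10 (Leydig cells), 0 (endothelial cells) and 0 to 1 (pericytes) for dKO XY, 18 to 26 (supporting cells), 17 to 27 (interstitial cells), 1 to 10 (endothelial cells) and 8 to 13 (pericytes) for control XX, 22 to 27 for dKO XY against control XX, and 9 to 21 for the difference between supporting and interstitial cells. Most of these counts are given without the share of all genes called under the same setting. They describe how the calls depend on the processing and not the collagen genes as a set. The causes were not tested.

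Directions changed with the cells summed. With more than 1500 genes per cell, and then with low *Tcf21* and *Sycp3*, the supporting cells gave *Col3a1* 0.15 and 0.73 for dKO XY, and *Col6a1* 0.52 and 0.91 and *Col6a2* 0.58 and 1.13 for control XX. Turns outside this list include *Col5a1* and *Col15a1* for dKO XY and *Col3a1* for control XX, each positive in the supporting cells with low *Tcf21* and *Sycp3*. For the difference between supporting and interstitial cells the same settings gave *Col15a1* 0.20 and 0.64, *Col25a1* 0.054 and 0.26, *Col26a1* 0.64 and 1.17, *Col5a1* 0.079 and 0.65, and *Col5a2* 0.61 and 1.08, and the second alone turned *Col1a2* (0.24) and *Col4a2* (0.043). The third interstitial cluster alone gave, for control XX, *Col13a1* 0.17, *Col23a1* 0.63, *Col25a1* 0.91, *Col26a1* -0.29, *Col27a1* -0.84, *Col4a5* -1.01, *Col4a6* -1.23, *Col5a2* -0.94, *Col6a3* -0.50, *Col6a6* -0.11 and *Col9a2* -0.025.

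With the replicate number as a block, 15 members were called in Leydig cells, 4 in interstitial cells and 1 in endothelial cells of dKO XY, and 15 and 13 in supporting and Sertoli cells. The share of all genes called with a block, of this kind or crossed, is likewise not given. Same-numbered libraries of dKO XY and control XY deviated together by a correlation of 0.03 in supporting and 0.163 in Leydig cells, so the numbers, with 2 pairs, were not taken as a pairing. Where the correlation was negative, a crossed block, chosen after the data were seen, gave 28 members in interstitial cells and 18 in pericytes of control XX, and 25 for dKO XY against control XX. Genes tested numbered 11991 in endothelial cells (97 to 256 cells per library) and 16989 in interstitial cells, and genes below the filter on low counts were not tested. A fit without 1 library leaves a group with a single library, which is assumed to vary like the others.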

Other observations

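The few granulosa cells of dKO XY (68 and 23 per library) were in no comparison of the report. They had 78.6 and 76.1 CPM of *Col12a1*, beside 50.1 and 43.9 CPM in control XX granulosa cells, and 43.0 and 51.5 CPM of *Col4a5*, beside 65.9 and 56.6 CPM. *Col9a3* was at 6.22 and 7.02 CPM in them, below the 13.9 and 16.8 CPM of immune cells of the same libraries. *Col9a2* had 18.7 and 21.1 CPM, against 56.2 and 49.5 CPM in control XX and 209 and 156 CPM in dKO XY Sertoli cells.

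A further set of dKO XY supporting cells (427 and 448 cells) was given no name in the second clustering. In the clustering of all cells, 357 and 398 of them lay in a cluster of 419 and 439 dKO XY cells that was named granulosa, with 8 of 8 markers. Granulosa markers summed to 3193 and 3643 CPM in the unnamed cells, Sertoli markers to 1472 and 1227 CPM and interstitial markers to 412 and 422 CPM. With more than 1500 genes per cell, the like cluster was again unnamed against the Sertoli and granulosa lists, and had 7 of 8 interstitial markers when all lists were used. *Col4a1* stood at 509 and 582 CPM in the 427 and 448 unnamed cells, above the 84.7 and 102 CPM of dKO XY Sertoli cells.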
